A study of Mus musculus with 16 samples.

Results

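Neutrophil granule proteins are represented here by 10 genes: Mpo, Elane, Prtn3 and Ctsg of the primary granules, Ltf, Lcn2, Camp and Ngp of the secondary granules, and Mmp8 and Mmp9 of the tertiary granules. They were chosen by name with the measured difference between GFP+ and GFP- cells of these same arrays in view, so that difference is given for them as a description and without a test. Each of the 10 had 1 probe set, among 19505 genes measured. The samples came from 24 S100a5-tauGFP mice of both sexes, aged 7 to 12 weeks, which spent 40 h singly in chambers with clean air flowing at 3.1 L/min. From 26 h onwards they received 10 s pulses every 20 min of octanoic acid, a fatty acid odorant, or of filtered air as the vehicle. All mice carried the reporter, in which a green fluorescent protein follows S100a5, whose transcription in olfactory sensory neurons depends on their activity. The dissected olfactory mucosae of 3 mice made up a pool, whose cells were dissociated and separated by flow cytometry according to GFP. Each sorted sample gave 50 to 100 ng of total RNA for a Clariom S array. This gave 4 groups of 4 arrays, clean-air GFP+, clean-air GFP-, octanoic acid GFP+ and octanoic acid GFP-, from 8 pools of 3 mice. The labels name no gate for neutrophils, so GFP- cells are every cell of the dissociated mucosa without the reporter's fluorescence, and that includes neurons.

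Neutrophils carry their antimicrobial proteins in granules that are filled in sequence while the cells mature in the bone marrow. Primary (azurophil) granules are loaded at the promyelocyte stage with myeloperoxidase and serine proteases, secondary (specific) granules at the myelocyte stage with iron-scavenging proteins and cathelicidin-type proteins, and tertiary (gelatinase) granules later with matrix metalloproteinases. The genes of each class are transcribed mainly at the stage that fills the granule, so a circulating neutrophil holds proteins whose transcripts have largely gone. Mmp8 is often counted with the secondary granules, and Lcn2 and Ltf are also made by secretory epithelia.

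Transcription of these genes is known to depend on PU.1 and on proteins of the C/EBP family. The sequences before the start of the gene are shown for 5 members, chosen because Prtn3 and Elane are neighbouring genes of the primary class that varied together below, Ltf and Ngp lie near each other on chromosome 9 and varied together as well, and Mmp8 stands for the tertiary class. They are 250 bases each, from RefSeq on GRCm38.p6: Prtn3 chr10:79879417-79879666 (+ strand), Elane chr10:79886062-79886311 (+), Ltf chr9:111019042-111019291 (+), Ngp chr9:110419558-110419807 (+) and Mmp8 chr9:7558179-7558428 (+). Capitals mark matches, on either strand, to GAGGAA, a core recognized by PU.1, or to TTGCNNAA, a core recognized by C/EBP proteins.
Prtn3: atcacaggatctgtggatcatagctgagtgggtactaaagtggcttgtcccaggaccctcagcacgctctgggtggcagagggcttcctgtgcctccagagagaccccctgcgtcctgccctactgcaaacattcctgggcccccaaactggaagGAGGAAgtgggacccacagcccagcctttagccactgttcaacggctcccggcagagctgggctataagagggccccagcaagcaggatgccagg
Elane: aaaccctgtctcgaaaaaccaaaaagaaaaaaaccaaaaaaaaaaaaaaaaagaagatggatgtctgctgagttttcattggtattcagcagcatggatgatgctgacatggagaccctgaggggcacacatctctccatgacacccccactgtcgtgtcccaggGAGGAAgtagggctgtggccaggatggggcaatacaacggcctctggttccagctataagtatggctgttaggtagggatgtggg
Ltf: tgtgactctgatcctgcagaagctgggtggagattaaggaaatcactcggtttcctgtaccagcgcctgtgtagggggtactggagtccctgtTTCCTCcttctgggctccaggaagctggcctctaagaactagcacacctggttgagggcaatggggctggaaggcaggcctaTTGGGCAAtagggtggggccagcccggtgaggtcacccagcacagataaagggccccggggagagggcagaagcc
Ngp: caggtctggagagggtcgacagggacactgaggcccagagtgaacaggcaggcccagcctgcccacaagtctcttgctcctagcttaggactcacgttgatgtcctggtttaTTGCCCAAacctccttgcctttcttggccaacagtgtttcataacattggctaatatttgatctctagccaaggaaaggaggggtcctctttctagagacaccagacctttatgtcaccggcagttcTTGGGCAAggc
Mmp8: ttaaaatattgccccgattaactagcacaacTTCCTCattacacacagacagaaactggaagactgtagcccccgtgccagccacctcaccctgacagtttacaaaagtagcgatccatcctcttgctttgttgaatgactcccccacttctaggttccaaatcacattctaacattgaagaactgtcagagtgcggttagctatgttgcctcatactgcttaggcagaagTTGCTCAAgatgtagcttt

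The table of promoters held 9 of the 10 members, all but Mmp9. GAGGAA was found in 7 of the 9, namely the 4 primary genes, Ltf, Lcn2 and Mmp8, against 23.3% of all 32851 promoters of that length. TTGCNNAA was found in 4 of the 9, which are Ltf, Lcn2, Ngp and Mmp8, against 9.56% of all promoters, and Ngp held 2 matches. None of the 4 primary promoters held TTGCNNAA. TATAAA was found in 1 of the 9, that of Ctsg, against 12.4% of all promoters. No match overlapped another. Between Prtn3 and Elane there is no other protein-coding gene, 8 lie between Camp and Ngp, and 20 between Ngp and Ltf.

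The values are log2 signals. The background is taken as the middle value of the 5222 probe sets that serve as negative controls, which was 6.20 log2 across the arrays and between 5.80 and 6.77 on each of them. Some of these controls were bright, with a 95th percentile of 10.4 log2, and a gene a little above the background may not be transcribed. All 10 markers of olfactory sensory neurons were above the background on all 16 arrays, with a summed signal of 20.7 to 21.2 log2. All 17 measured genes of mature neutrophils were above it on every GFP- array, although no gate selected those cells. On the GFP+ arrays 6 to 12 of the 17 were above it. Of all 19505 genes, 11655 had a mean over the 16 arrays above it. Arrays have no read depth, and 4 pools a group limit the precision.

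Primary granule genes were nearly at the background in GFP+ cells, and Mpo and Elane stood above it in every GFP- sample. Mpo, which makes hypochlorous acid from hydrogen peroxide, measured 10.73, 9.45, 11.03 and 11.56 log2 in GFP- cells of clean-air pools 1 to 4 and 10.08, 9.55, 9.97 and 13.27 in those of octanoic acid pools 1 to 4. In GFP+ cells its values were 6.24, 6.19, 6.40 and 6.37 with clean air and 6.56, 6.06, 6.50 and 5.93 with octanoic acid. The GFP- values spread widely, with octanoic acid pool 4 far above the rest, while the GFP+ values lay within 1 log2 unit of each other. The within-pool difference, GFP+ minus GFP-, was -4.39 ± 0.82 log2 with clean air (SD, n = 4) and -4.46 ± 1.93 with octanoic acid, a gap of at least 20.4-fold. With clean air no fold is given, because the GFP+ value was under the background of its own array on 3 of the 4 arrays. Without octanoic acid pool 4 the treated difference was -3.49 log2, at least 10.9-fold. A fold is called "at least" where the GFP+ mean did not exceed the background by 1 SD, and arrays under the background were then raised to it.

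Elane, neutrophil elastase, measured 9.62, 8.51, 10.46 and 9.62 log2 in clean-air GFP- cells and 9.30, 8.71, 8.48 and 12.58 in octanoic acid GFP- cells. Its GFP+ values, 5.27 to 5.95, were all under the background, and the difference was -3.89 ± 0.86 log2 with clean air (at least 10.2-fold) and -4.17 ± 1.64 with octanoic acid (at least 11.8-fold), or -3.36 without pool 4 (at least 6.19-fold). Again octanoic acid pool 4 was the highest GFP- sample and the other treated pools lay within the clean-air range or just under it. Prtn3, proteinase 3, was close to the background throughout, with 6.51, 6.33, 6.87 and 7.01 log2 in clean-air GFP- cells and 6.55, 6.39, 6.45 and 7.99 in octanoic acid GFP- cells, against 5.39 to 6.21 in GFP+ cells. Its difference was -0.89 ± 0.57 log2 with clean air, at least 1.39-fold, and -0.80 ± 0.70 with octanoic acid. There all 4 GFP- arrays were above the background, but their mean of 6.85 exceeded it by less than its SD of 0.77, so no fold is given.

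Ctsg, cathepsin G, a protease related to elastase, was under the background in 7 of the 8 GFP- samples. The values were 5.10, 4.66, 4.93 and 5.37 log2 with clean air and 4.64, 4.95, 5.17 and 7.98 with octanoic acid, so that pool 4 of the treated mice was the only GFP- sample above it. GFP+ cells gave 3.71 to 4.56 log2. The differences of -1.06 ± 0.41 log2 (clean air) and -1.40 ± 1.69 (octanoic acid) therefore have no fold, and the latter was -0.56 without pool 4. All 4 GFP- arrays were above all 4 GFP+ arrays for each of the 4 primary genes in each treatment.

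Secondary granule genes were higher on every GFP- array than on any GFP+ array of the same treatment. Lcn2, lipocalin-2, which withholds iron from bacteria by binding their siderophores, measured 17.15, 18.10, 18.12 and 18.12 log2 in clean-air GFP- cells and 17.62, 18.62, 18.06 and 18.69 in octanoic acid GFP- cells. In GFP+ cells the values were 7.54, 7.85, 7.55 and 9.36 with clean air and 8.66, 8.66, 5.78 and 11.22 with octanoic acid. Pool 4 was thus the highest GFP+ sample of either treatment, and its treated array, at 11.22, was above the 95th percentile of the negative controls. Lcn2 was 889-fold lower in GFP+ cells with clean air (-9.80 ± 0.80 log2, SD, n = 4) and 815-fold lower with octanoic acid (-9.67 ± 2.02). The treated difference was -8.80 without pool 3, whose GFP+ value was under the background, and -10.40 without pool 4.

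Ngp, neutrophilic granule protein, a cathelin-related protein of myeloid cells, followed the same course. Its GFP- values were 16.89, 18.10, 18.11 and 18.14 log2 with clean air and 17.53, 18.56, 18.02 and 18.82 with octanoic acid, and its GFP+ values 7.69, 6.41, 8.17 and 9.41, and 8.22, 8.62, 6.14 and 10.32. The difference came to -9.89 ± 1.30 log2 with clean air (949-fold) and -9.91 ± 1.44 with octanoic acid (962-fold). It was -9.29 with clean air without pool 2 and -9.26 with octanoic acid without pool 3. Clean-air pool 1 was the lowest GFP- sample for both Lcn2 and Ngp, and the other clean-air pools lay within 0.1 log2 of each other for both.

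Ltf, lactoferrin, which binds iron, measured 11.21, 13.82, 13.97 and 13.77 log2 in clean-air GFP- cells and 12.74, 14.44, 13.46 and 15.22 in octanoic acid GFP- cells, against 4.95 to 6.83 in GFP+ cells. GFP+ minus GFP- was -7.77 ± 1.51 log2 with clean air, at least 127-fold, and -7.88 ± 0.45 in treated mice, at least 189-fold. Camp, the precursor of the mouse cathelicidin peptide, measured 7.77, 9.90, 10.91 and 10.82 log2 in clean-air GFP- cells and 9.10, 11.06, 10.25 and 11.36 in octanoic acid GFP- cells, against 4.38 to 6.17 in GFP+ cells. Its difference was -5.31 ± 1.44 log2 (at least 12.6-fold) and -5.03 ± 1.33 (at least 18.9-fold). For both genes clean-air pool 1 was the lowest GFP- sample, 2 log2 units or more below each of the other clean-air pools. Without it the clean-air differences were -8.50 log2 for Ltf (at least 201-fold) and -6.00 for Camp (at least 20.3-fold).

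Of the tertiary genes, Mmp8, neutrophil collagenase, measured 12.78, 14.73, 14.60 and 14.82 log2 in clean-air GFP- cells and 13.47, 16.01, 14.47 and 15.95 in octanoic acid GFP- cells. GFP+ cells gave 4.62 to 6.93 log2, and the difference was -9.10 ± 0.85 (at least 262-fold) with clean air and -9.23 ± 0.87 (at least 387-fold) with octanoic acid. Octanoic acid pools 2 and 4 were the highest GFP- samples and clean-air pool 1 the lowest. Mmp9, gelatinase B, measured 10.50, 12.00, 12.59 and 12.11 log2 in clean-air GFP- cells and 11.25, 13.48, 11.50 and 14.00 in octanoic acid GFP- cells, with the same pools at the ends. Its GFP+ values were 4.12 to 5.56 log2, all under the background, and the difference was -7.23 ± 1.09 (at least 48.5-fold) and -7.81 ± 0.95 (at least 82.1-fold).

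**Figure D1:**
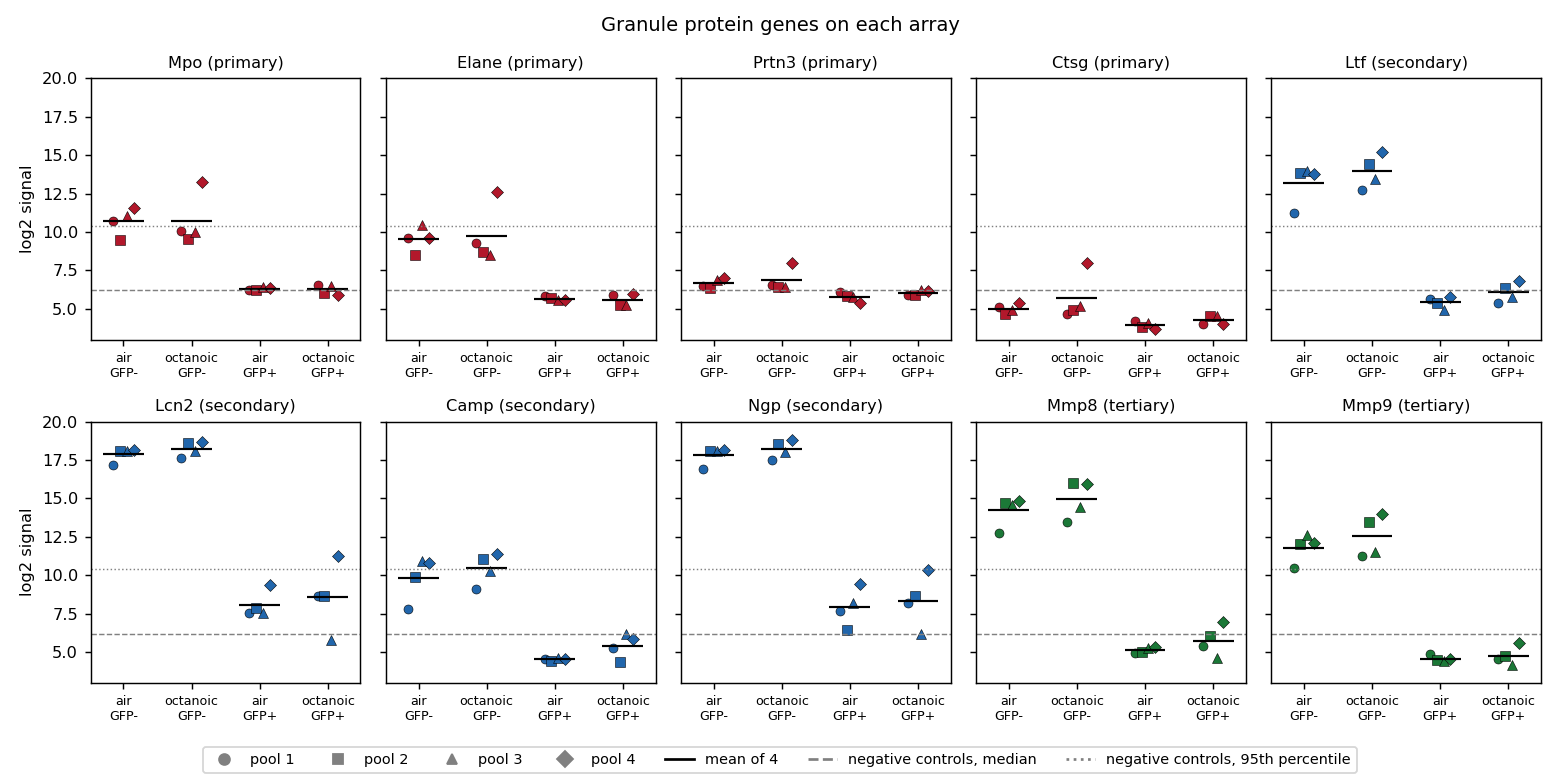
Log2 signal of the 10 granule genes on each of the 16 arrays, by group; symbols give the pool number, the bar is the mean of 4, and the lines are the median (6.20) and the 95th percentile (10.4) of the negative controls. In every panel the GFP- samples lie above the GFP+ samples of the same treatment, with Prtn3 and Ctsg close to the background in both, and octanoic acid GFP- pool 4 stands out for the primary genes.

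By class, the median of GFP+ minus GFP- was -2.48 log2 in clean-air pools and -2.79 in treated pools for the primary genes, -8.78 and -8.78 for the secondary genes, and -8.17 and -8.52 for the tertiary genes. The median over all genes was 0.11 in each treatment. For all 10 genes the GFP- arrays lay wholly above the GFP+ arrays in each treatment, a pattern that 10.7% of all genes had with clean air and 10.7% in treated mice. The genes were chosen with this difference known, so nothing is read from that count. In these bulk samples, fewer cells of a type and less RNA per cell cannot be told apart. For 8 of the 10 genes, all but Lcn2 and Ngp, GFP+ cells lay at the background in at least 1 treatment, so the sizes of the differences are set partly by where the background lies.

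**Figure D2:**
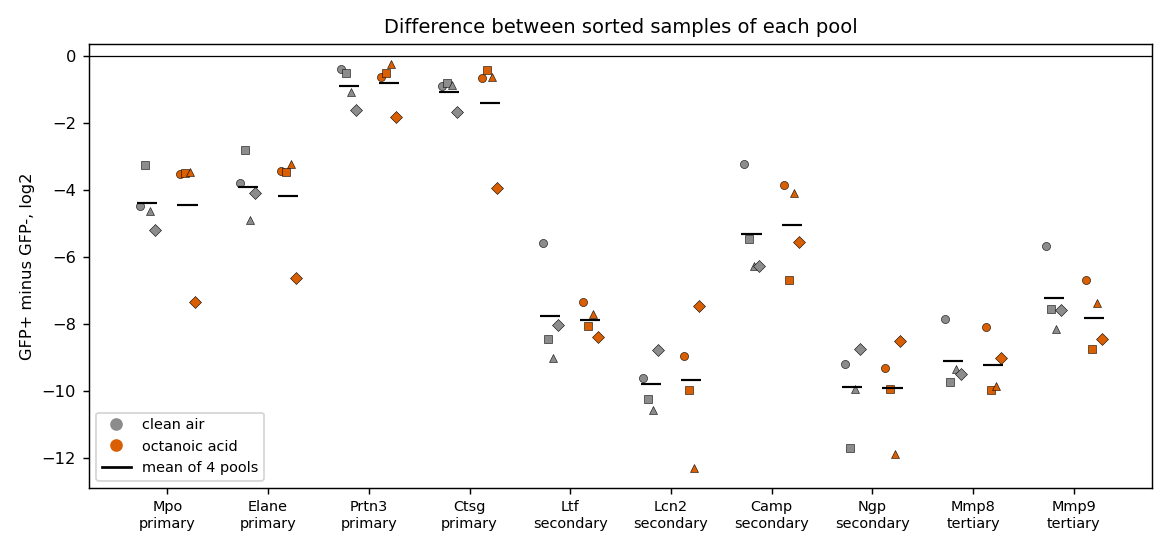
Difference between the sorted samples of each pool, log2 GFP+ minus log2 GFP-, for the 10 genes; circles, squares, triangles and diamonds are pools 1 to 4, grey with clean air and orange with octanoic acid, and the bar is the mean of 4 pools. Prtn3 and Ctsg lie nearest to 0, Lcn2 and Ngp reach about -12, and the diamond of octanoic acid pool 4 is the lowest for each primary gene.

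The other genes of granule biology were mostly lower in GFP+ cells too. Their lists, like the cell type lists below, were chosen with earlier results of these data known. The counts and p-values of these lists between the sorts are therefore a description and no independent support. Of the 26 measured genes for processing, storage and release of granule proteins and for other granule contents, 20 were lower in GFP+ cells with clean air and 21 in treated mice, and none was higher (limma, adjusted p of 0.05 or less), where 9.58% and 10.9% of all genes were lower and 5.83% and 6.26% higher. The medians of the list were -3.34 log2 in clean-air pools and -3.80 in treated pools, against 0.11 over all genes. Among the genes that serve the primary proteases, Ctsc, the peptidase that activates them, had a GFP+ minus GFP- of -4.04 ± 0.55 log2 with clean air (SD, n = 4; limma adjusted p = 3.27e-07). Serpinb1a, an inhibitor of elastase, had -4.90 ± 0.88 (adjusted p = 8.50e-06) and Srgn, the proteoglycan core that holds proteases in granules, -2.45 ± 0.54 (adjusted p = 4.11e-05). Ms4a3, a gene of granulocyte progenitors, did not pass with clean air (adjusted p = 0.132) and was lower with octanoic acid, at -1.78 log2 (adjusted p = 0.00965). The means of Ms4a3, 4.10 to 5.89 log2, were under the background in every group, so both values compare signals at the background. Whether that gene's difference itself changed with treatment is covered by the treatment contrast below, in which no gene was called.

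Measured contents and membrane proteins of the later granules were also lower in GFP+ cells. Chil3, a chitinase-like protein, had a GFP+ minus GFP- of -9.08 ± 0.70 log2 with clean air (adjusted p = 4.78e-08), Hp, haptoglobin, -7.00 ± 1.02 (adjusted p = 4.97e-07), and Cybb, the catalytic subunit of the phagocyte oxidase stored in secondary granule membranes, -6.37 ± 0.87 (adjusted p = 4.59e-07). Smaller differences passed too, with -2.63 for the membrane metalloproteinase Mmp25 (adjusted p = 0.000496), -2.25 for the oxidase subunit Cyba (adjusted p = 0.000104) and -1.72 for the ficolin Fcnb (adjusted p = 0.000367), all by limma. The clean-air GFP+ means of Hp (5.26 log2), Mmp25 (4.92) and Fcnb (4.69) were under the background. The clean-air GFP- mean of Fcnb, 6.41, exceeded it by less than its SD of 0.41. Vamp8, also counted as lower in both treatments, had group means of 4.64 to 6.07 log2, all under the background. Of the release machinery, Rab27a, with -3.43 ± 0.85 log2 with clean air, and Stxbp2, with -3.24 ± 0.61, were lower in GFP+ cells. Unc13d had -0.0007 ± 0.43 log2 (limma adjusted p = 1.00), but its group means, 5.84 to 6.06 log2, were all under the background. Prss57, Cst7, Timp1 and Bpi did not pass in either treatment, with differences between -0.42 and 0.52 log2 with clean air. Their group means, 3.822 to 5.175 log2, were all under the background, so a difference could hardly have been seen.

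Among 16 regulators of granulocyte development, 9 were lower in GFP+ cells with clean air and 12 in treated mice, and none was higher. Spi1, which encodes PU.1, had a GFP+ minus GFP- of -7.08 ± 0.78 log2 with clean air (limma adjusted p = 1.44e-07), Myb, a factor of early progenitors that acts on primary granule genes, -4.60 ± 0.55 (adjusted p = 5.11e-08), and Csf3r, the G-CSF receptor, -6.22 ± 0.76 (adjusted p = 2.84e-07). The clean-air GFP+ means of Csf3r (5.895 log2), Myb (5.454) and Cebpd (6.041) were under the background. Lef1, counted as lower with octanoic acid, had group means of 4.807 to 5.75 log2, all under it. The C/EBP family was uneven. With clean air Cebpd had -1.22 log2 (adjusted p = 0.0189) and Cebpa -0.60 (adjusted p = 0.0483), both past the threshold. Cebpe, the factor of secondary granule genes, had -0.80 (adjusted p = 0.0801) with clean air and -1.13 with octanoic acid (adjusted p = 0.0148), of which the second passed. The means of Cebpe, 4.52 to 5.71 log2, were under the background in every group, so both values compare signals at the background. Cebpb and Gfi1 did not pass in either treatment, with -0.01 and 0.22 log2 with clean air. The group means of Gfi1, 5.71 to 5.92 log2, were all under the background, and those of Cebpb above it. The 17 measured genes of mature neutrophils were all lower with clean air and 15 in treated mice. They included the calprotectin subunit S100a9 (-9.31 ± 0.89 log2 with clean air) and Retnlg (-9.98 ± 0.72).

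Without octanoic acid pool 4 and clean-air pool 1, the pools at the ends of most GFP- ranges, the counts of lower genes were 21 and 21 of 26 for the granule partners, 8 and 9 of 16 for the regulators, and 16 and 15 of 17 for the mature neutrophil genes. Of the other blood cell lists, the counts of lower genes over all pools, with clean air and in treated mice, were 5 and 5 of 5 monocyte genes, 6 and 6 of 7 macrophage genes, 4 and 4 of 6 B-lineage genes, 4 and 4 of 4 T and NK genes, 3 and 4 of 4 eosinophil genes, 2 and 2 of 7 mast cell and basophil genes, 3 and 3 of 4 stem and progenitor genes and 3 and 3 of 3 erythroid genes. Chil3 is counted among both the monocyte genes and the granule partners. The means of Cd3g, Nkg7, Siglecf, Flt3, Gata2 and Vpreb3, which are among the genes counted as lower, were under the background in every group. Their calls compare signals at the background. Those of Epx, Ccr3 and Mcpt8 were above it in octanoic acid GFP- cells only, at 6.35, 6.36 and 6.31 log2. The mast cell and basophil list had medians of -0.17 and 0.21 log2. Without both end pools the counts were 5 and 6 for macrophage, 2 and 4 for B-lineage, 1 and 3 for eosinophil and 2 and 3 for stem and progenitor genes, with the other 4 counts as over all pools. Of the epithelial lists, 2 and 1 of 8 sustentacular and 3 and 3 of 11 Bowman gland genes were lower over all pools, and 2 and 0, and 3 and 2, without both end pools. Of 10 neuronal markers, 1 was higher in each treatment and none was lower, and none was called without both end pools. Among all genes 9.58% and 10.9% were lower and 5.83% and 6.26% higher, so 1 of 8 or 1 of 10 is near the background share.

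The GFP- samples were then compared with each other, a spread that did not enter the choice of the genes, though earlier results of these data were known. Each gene was set against its own mean over the 8 GFP- arrays. Octanoic acid pool 4 was the highest GFP- sample for 9 of the 10 genes, all but Mmp8, against 12.4% of all genes. Clean-air pool 1 was the lowest for 6 of 10, which are the 4 secondary and the 2 tertiary genes, against 10.4% of all genes. Genes that vary together do not give independent counts. The classes departed by different amounts. In octanoic acid pool 4 the mean deviation was 2.33 log2 for the primary, 1.07 for the secondary and 1.59 for the tertiary genes. In clean-air pool 1 it was -0.13 for the primary genes, close to their mean, and -1.70 for the secondary and -1.75 for the tertiary genes. Octanoic acid pool 2 showed the classes on opposite sides, at -0.72 for the primary genes against 0.72 for the secondary and 1.36 for the tertiary genes.

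**Figure D3:**
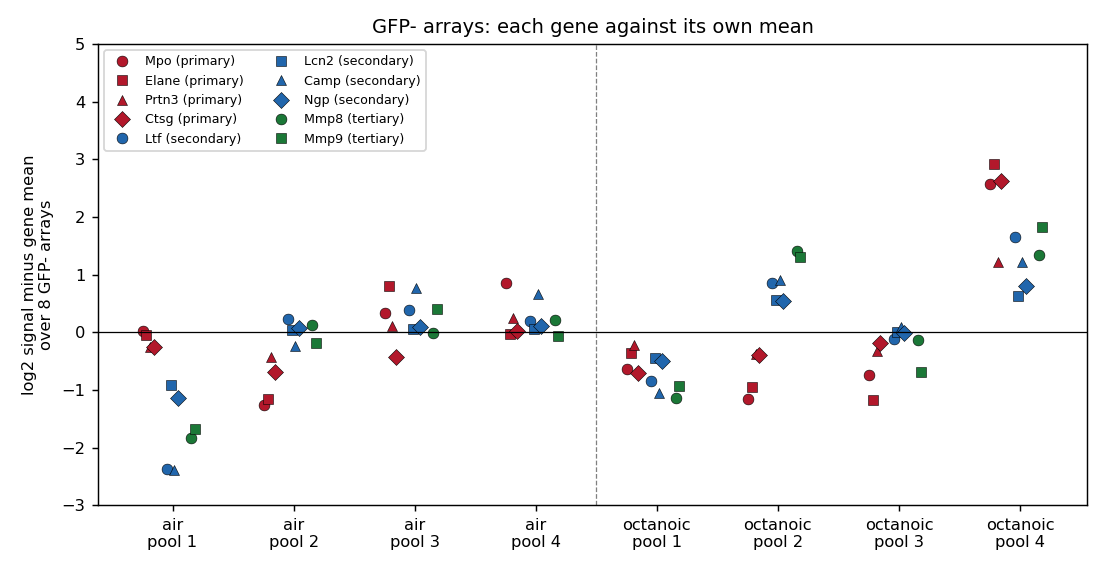
Log2 signal of each gene minus its own mean over the 8 GFP- arrays, by pool; red is primary, blue secondary and green tertiary, and the dashed line separates the treatments. In clean-air pool 1 the blue and green symbols lie at -0.9 or lower while the red ones are near 0, in octanoic acid pool 2 the red ones lie below 0 and the others above it, and in octanoic acid pool 4 every symbol is above 0.

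Genes of one class were correlated across the GFP- pools. Over the 8 arrays all 45 pairs of the 10 genes had a positive Pearson r, and 20 passed an exact permutation test over pairings after Benjamini-Hochberg adjustment over the 45 pairs, 18 by Spearman's rho and 18 by both. The share of pairs among all genes that would pass was not computed, so these counts are not read as particular to granule genes. The 6 secondary pairs had r of 0.945 to 0.995 and rho of 0.929 to 1.00 and all passed both tests. Lcn2 and Ngp had r = 0.995 (exact permutation p = 2.48e-05, adjusted 0.00112) and rho = 1.00 (p = 4.96e-05, adjusted 0.00223). The 8 pairs of a secondary with a tertiary gene, r of 0.883 to 0.992, all passed both tests as well, and so did Mmp8 with Mmp9 (r = 0.949, exact permutation p = 0.000967, adjusted 0.00290; rho = 0.905, p = 0.00456, adjusted 0.0137).

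The primary genes were also correlated with each other. Their 6 pairs had r of 0.867 to 0.969, and 5 passed by Pearson's r and 3 by Spearman's rho. Mpo and Prtn3 had r = 0.969 (exact permutation p = 0.000149, adjusted 0.00134) and rho = 0.976 (p = 0.000397, adjusted 0.00298), and the neighbouring genes Prtn3 and Elane had r = 0.951 (exact permutation p = 0.00315, adjusted 0.00788) and rho = 0.881 (p = 0.00724, adjusted 0.0192). The 3 pairs of Ctsg, which lay under the background in 7 of 8 samples, had rho of 0.381 to 0.619 and did not pass by rank. No pair of a primary with a later gene passed over the 8 arrays. The 16 pairs of a primary with a secondary gene had r of 0.283 to 0.543, and the 8 pairs of a primary with a tertiary gene 0.270 to 0.614. That the classes differ in their correlations was not itself tested.

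Much of the primary correlation rested on octanoic acid pool 4. Without that pool the primary pairs had r of 0.197 to 0.934, of which 1 passed, and the pairs of a primary with a secondary gene ran from -0.300 to 0.323, whereas the secondary pairs stayed at 0.939 to 0.994 and all 6 passed. Other pools moved the pairs across classes upwards. Without octanoic acid pool 2 the pairs of a primary with a secondary gene had r of 0.468 to 0.686, none of which passed, and those of a primary with a tertiary gene 0.537 to 0.851, of which 1 passed. Without clean-air pool 1 the primary with secondary pairs had r of 0.427 to 0.768, and none passed. Without both octanoic acid pool 4 and clean-air pool 1, 0 of the 45 pairs passed over the 6 arrays left, with r of 0.835 to 0.993 for the secondary pairs and 0.155 to 0.994 for the primary pairs. With the 2 arrays farthest from the median of the first gene left out, the primary pairs had r of 0.102 to 0.919, the secondary pairs 0.763 to 0.993, and the pairs of a primary with a secondary gene -0.600 to 0.143. On deviations from the treatment means, 21 pairs passed, with the secondary pairs at 0.951 to 0.995 and the primary pairs at 0.893 to 0.980. The 8 values of a gene share their arrays and their dissected tissue, and each treatment alone has too few pools for a correlation.

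**Figure D4:**
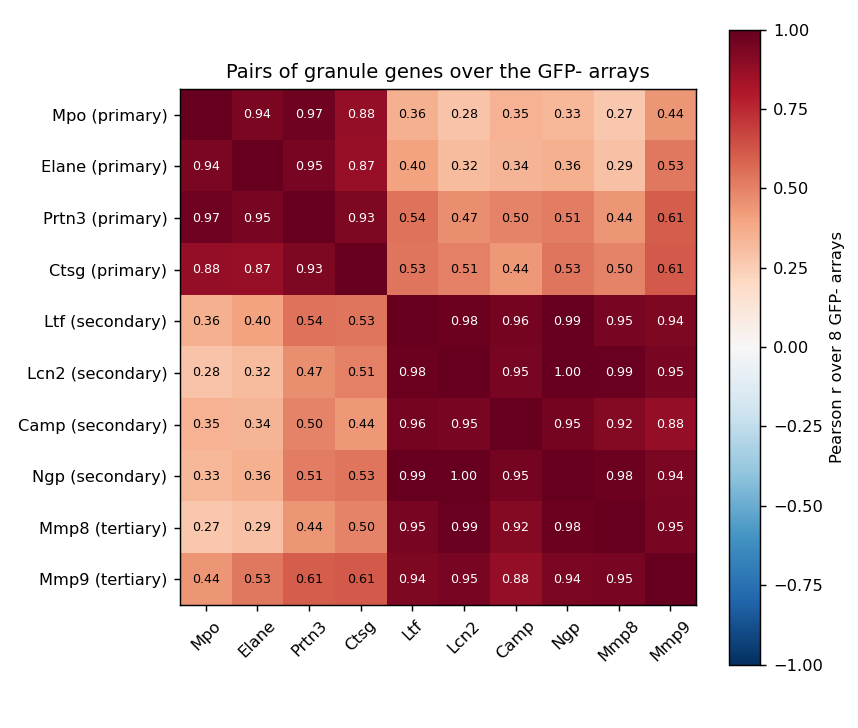
Pearson r over the 8 GFP- arrays for each pair of the 10 genes, on a color scale from -1 to 1. Pairs of primary genes have r of 0.867 to 0.969, pairs among the 6 secondary and tertiary genes 0.883 to 0.995, and pairs across them 0.270 to 0.614.

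Other blood cell genes moved with the granule genes across the pools. In octanoic acid pool 4, 21 of the 26 granule partners, 9 of the 16 regulators, 8 of the 17 mature neutrophil genes, 5 of the 5 monocyte genes, 3 of the 3 erythroid genes and 3 of the 4 stem and progenitor genes had their highest GFP- value, against 12.4% of all genes. In clean-air pool 1, 16 of the 26 partners, 6 of the 16 regulators, 8 of the 17 mature neutrophil genes, 4 of the 5 monocyte genes and 3 of the 3 erythroid genes had their lowest, against 10.4% of all genes. The summed signal of the monocyte genes ran from 14.7 to 16.5 log2 in clean-air GFP- cells, lowest in pool 1, and from 15.2 to 17.4 in octanoic acid GFP- cells, highest in pool 4. That of the erythroid genes ran from 11.0 to 12.0 and from 11.3 to 13.6, with the same pools at the ends, and that of the mature neutrophil genes from 17.0 to 18.5 and from 17.4 to 19.1. Macrophage genes, at 10.6 to 11.4 and 10.4 to 11.5 log2, had 1 of 7 highest in octanoic acid pool 4 and 0 of 7 lowest in clean-air pool 1, and of the B-lineage genes 0 of 6 were highest in the former. The part of these cell types in the granule signals was not tested.

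Because secretory epithelium also makes Ltf and Lcn2, the Bowman gland list was set beside them. Its summed signal in GFP- cells was 13.7, 15.3, 14.2 and 16.9 log2 in clean-air pools 1 to 4 and 13.6, 15.3, 14.3 and 15.2 in octanoic acid pools 1 to 4. It was highest in clean-air pool 4, where Ltf measured 13.77 log2, less than in clean-air pools 2 and 3. Lcn2 in GFP- cells of that pool, 18.12 log2, was hardly above clean-air pools 2 and 3, at 18.10 and 18.12. In GFP+ cells of that pool Lcn2 was 9.36, the highest of the clean-air pools. In GFP+ cells the gland list ran from 12.7 to 15.9 log2, while Ltf there was 4.95 to 6.83. Of the treated GFP+ arrays the gland list was highest in pool 3, at 15.1 log2, where Lcn2 was lowest, at 5.78. Of the 11 gland genes, 2 were highest in octanoic acid pool 4 (median 0.67 log2 above the mean of the other 7 pools) and 4 were lowest in clean-air pool 1 (median -0.66), against the 12.4% and 10.4% of all genes given above. The part of gland cells in the Ltf and Lcn2 signals was not tested. Of the 10 neuronal and the 8 sustentacular genes 0 were highest in octanoic acid pool 4.

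GFP+ and GFP- values of a gene were not clearly related over the 8 pools. For Lcn2 r was 0.466 (exact permutation p = 0.235) and rho 0.762 (p = 0.0368, adjusted 0.277 over the 10 genes), for Ngp r was 0.426 (exact permutation p = 0.295) and rho 0.714 (p = 0.0576, adjusted 0.277), and for Mmp8 r was 0.688 (exact permutation p = 0.0578, adjusted 0.470) and rho 0.667 (p = 0.0831, adjusted 0.277). None of the 10 passed after adjustment. Without the 2 pools farthest from the median, r was 0.07 for Lcn2, 0.161 for Ngp and 0.675 for Mmp8.

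The genes whose course was most like that of each class were found by Pearson r with the class mean, as a description. Over all 16 arrays, which reflect mostly the sort, S100a9 (0.998), S100a8, Chil3, Retnlg and Chil4 (0.993) were nearest to the secondary class and Chil4 (0.997), Chil3, Gpx1, Ncf1 and Ly6c1 (0.996) to the tertiary class. H2ac8 (0.968), Lyl1, Zyx, Slc1a5 and Stk10 (0.960) were nearest to the primary class. An r of at least 0.95 was reached by 428 genes for the secondary, 485 for the tertiary and 26 for the primary class. Over the 8 GFP- arrays alone the nearest were Lyz2 (0.995), Anxa1, Ifitm6, Wfdc21 and Cybb (0.985) for the secondary class and Vsir (0.992), Capn1, Chil3, Hp and Gpx1 (0.988) for the tertiary class. For the primary class they were Slc16a10 (0.964), Vmn1r223, Myl12a, Ptgds and Nipsnap2 (0.952), and 3 of these 5, Slc16a10, Vmn1r223 and Ptgds, had GFP- means of 6.15, 3.86 and 4.44 log2, under the background. Over these 8 arrays an r of at least 0.95 was reached by 31 genes for the secondary, 75 for the tertiary and 5 for the primary class. The values of a class share its arrays, so no test is attached.

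Octanoic acid against clean air was then tested, a contrast that did not enter the choice of the genes, though earlier results of these data were known. In GFP- cells none of the 10 genes was called. Their estimates were all above 0, and none passed, as was so for all 19505 genes (limma, 0% called, with 391 higher and 350 lower at an unadjusted p of 0.05 or less). Ltf differed by 0.77 log2 (95% interval -0.63 to 2.17), Mmp9 by 0.76 (-0.59 to 2.11), Mmp8 by 0.75 (-0.54 to 2.03), Ctsg by 0.67 (-0.62 to 1.96), Camp by 0.59 (-0.86 to 2.04), Ngp by 0.42 (-0.31 to 1.16) and Lcn2 by 0.38 (-0.26 to 1.01), each with an adjusted p of 0.985 in limma. Elane (0.21, -1.46 to 1.89), Prtn3 (0.17, -0.56 to 0.89) and Mpo (0.02, -1.55 to 1.60) were nearer to 0, with adjusted p of 0.994, 0.985 and 1.00.

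The treated and clean-air GFP- samples overlapped for each of the 10 genes, where 2.27% of all genes had treatments that did not overlap. By an exact permutation test of the means, whose smallest possible two-sided p with 4 against 4 is 0.0286, the smallest p among the 10 was 0.314, for Lcn2. The direction depended on the pools. With 1 pool left out at a time, 6 to 10 of the 10 estimates were above 0. Without both octanoic acid pool 4 and clean-air pool 1, all 10 estimates were below 0, and limma called none. They ran from -0.82 for Mpo (95% interval -1.81 to 0.18) to -0.01 for Lcn2 (-0.59 to 0.57). These pools are the highest treated and the lowest clean-air sample for most of the genes. Leaving both out lowers the difference by that choice, so the change of sign is no separate result. The intervals over all pools reached up to between 0.89 and 2.17 log2, depending on the gene, so rises of up to those sizes were not excluded by these fits. The fits take no account of the numbers that treated and clean-air pools share. With the shared number in the fit, the SE for Mmp8 went from 0.587 to 0.240.

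**Figure D5:**
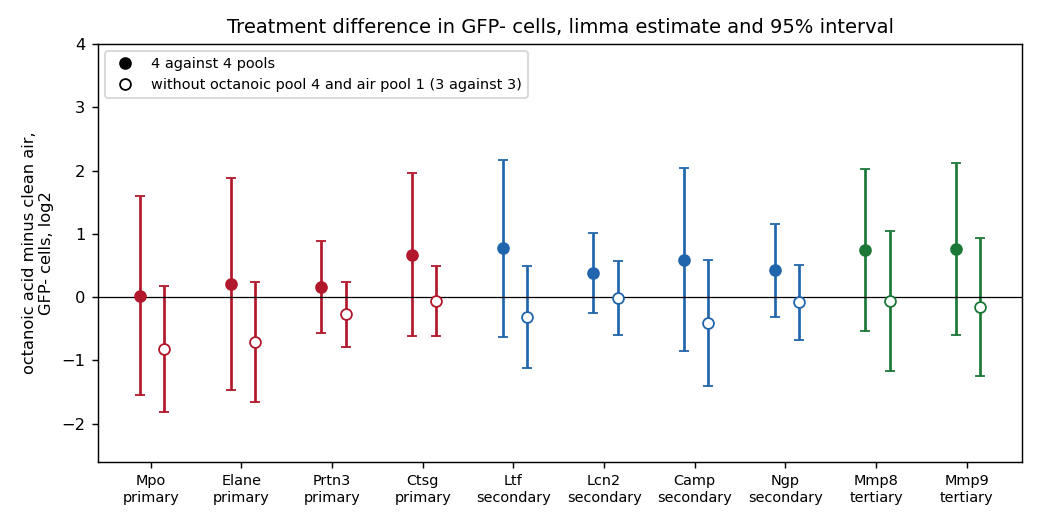
Octanoic acid minus clean air in GFP- cells for the 10 genes, as the limma estimate with its 95% interval in log2, over 4 against 4 pools (filled) and without octanoic acid pool 4 and clean-air pool 1 (open). Every interval spans 0, and the estimates pass from above 0 to below 0 when these pools are left out. The pools left out are the highest treated and the lowest clean-air sample for most of the genes, which lowers the difference by choice.

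In GFP+ cells 8 of the 10 estimates were above 0, and none passed (limma, 0% of 19505 genes called, with 471 higher and 245 lower at an unadjusted p of 0.05 or less). Camp differed by 0.86 log2 (95% interval 0.15 to 1.58, limma unadjusted p = 0.0226, adjusted p = 0.955), but its GFP+ values were under the background in both treatments, so no fold is given. Ltf differed by 0.66 (-0.01 to 1.34) and Mmp8 by 0.61 (-0.27 to 1.50), also at the background. Lcn2 and Ngp, whose GFP+ means were above the background although octanoic acid pool 3 was under it at 5.78 and 6.14 log2, differed by 0.50 (-1.50 to 2.51) and 0.40 (-1.38 to 2.18) log2. The treatments overlapped for each gene, against 2.29% of all genes that did not overlap, and the smallest exact permutation p was 0.114, for Ltf. The within-pool difference GFP+ minus GFP- was higher with octanoic acid for 3 of the 10 and lower for the others, from -0.58 log2 for Mmp9 to 0.27 for Camp, again with 0% of all genes called by limma (382 higher and 489 lower at an unadjusted p of 0.05 or less).

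The other lists gave no treatment call in GFP-, in GFP+ or in the within-pool difference. In GFP- cells 24 of the 26 granule partners, 13 of the 16 regulators and 14 of the 17 mature neutrophil genes had estimates above 0, with medians of 0.48, 0.36 and 0.27 log2 against 0.03 over all genes. Without octanoic acid pool 4 and clean-air pool 1 these counts were 11, 8 and 2, with medians of -0.02, 0.07 and -0.23. Those pools were left out because they lay at the ends, so lower medians were built into that choice. The 5 monocyte genes, which include Chil3 of the granule partners, and the 3 erythroid genes were all above 0 over the 8 pools, with medians of 0.46 and 0.59 log2. Without the end pools 1 of 5 and 0 of 3 were, with medians of -0.12 and -0.05. How much of these medians came from the cell makeup of single pools was not tested.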

How the data were processed

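Expression was measured on 16 Clariom S arrays, 2 from each of 8 pools of 3 mice. The deposited table holds log2 signals that the authors made with Affymetrix Expression Console, per the submitters' processing notes; its version and how it summarised and background-corrected the probes are not given in the sources used here. That the scale is log2 was judged from the range of values, 2.13 to 19.5. No raw intensities were used. Of 28846 probe sets, 6640 were controls, 2634 had no gene name and 19572 carried 1 symbol in the platform annotation. The brightest was kept for each gene, which left out 67.

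Moderated tests from limma (version 3.58.1, R version 4.3.3; lmFit, then eBayes, two-sided) compared octanoic acid with clean air in GFP- arrays, in GFP+ arrays and in the within-pool difference, and tested the mean difference of each treatment against 0, with Benjamini-Hochberg adjustment over 19505 genes at 0.05. Exact permutation tests and correlations were computed with numpy 2.4.6, with ranks from scipy 1.17.1. Scripts were tested on simulated data.

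The 10 genes, the lists and the tests were chosen with earlier results of these data known. All 10 are named; the genes most like each class are the 5 with the highest r, without Gm and Rik models; list genes are named by role or as the largest and smallest differences. Titles tie both sorted samples of a pool to the same mice. Treated and clean-air pools also share numbers: same-numbered deviations correlated at 0.371, 0.100, 0.219 and 0.138 in GFP+ cells and at 0.179, 0.110, 0.237 and 0.100 for the differences. All were over the limit of 0.1 used here, those of 0.100 and 0.110 only just. Nothing says whether pools were handled in batches. Gene order and promoters are from RefSeq, GRCm38.p6; the array files name no build. Alternatives were other scalings, filters, probe set rules, variance priors, floors, a replicate block and each pool left out; leaving out 2 pools together, leaving out each pool for the sorts and the relation of GFP+ to GFP- values were added after seeing the data.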

Additional observations from a re-analysis of the deposited data

Results flagged for a closer look

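Of 40 combinations of gene and group checked, 8 had a sample set apart from the other 3 by Dixon's test at the 95% level, where chance gives about 1 in 20, or 2. In octanoic acid GFP- cells pool 4 stood above the others for the primary genes Mpo (13.27 log2), Prtn3 (7.99) and Ctsg (7.98). In clean-air GFP- cells pool 1 stood below the others for Ltf (11.21 log2), Lcn2 (17.15), Ngp (16.89) and Mmp8 (12.78). In clean-air GFP+ cells pool 4 stood above the others for Lcn2 (9.36 log2). Genes of a class vary together, so these are not independent events, and 7 of the 8 come from 2 arrays.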

How the results depend on the processing

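No gene was called between the treatments under any alternative, in GFP-, GFP+ or the difference. The directions of the members moved. Leaving out both end pools lowers the GFP- difference by choice. Without octanoic acid pool 4 and clean-air pool 1 the GFP- estimates were -0.82 log2 for Mpo, -0.70 for Elane, -0.27 for Prtn3, -0.31 for Ltf, -0.0112 for Lcn2, -0.41 for Camp, -0.0812 for Ngp, -0.0634 for Mmp8 and -0.15 for Mmp9, and the GFP+ estimates 0.0535 for Mpo, -0.56 for Lcn2 and -0.34 for Ngp. With arrays centred on their medians, Mpo in GFP- cells was -0.0141. With 1 pool left out at a time, GFP- estimates ran from -0.83 to 0.41 for Mpo, -0.73 to 0.64 for Elane, -0.22 to 0.32 for Prtn3 and -0.10 to 1.04 for Camp, and GFP+ estimates from -0.14 to 0.0734 for Mpo, -0.38 to 1.44 for Lcn2 and -0.26 to 1.13 for Ngp. Octanoic acid pool 4 or clean-air pool 2 gave most of these turns.

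The 20 correlated pairs became 16 to 21 with 1 pool left out and 0 without both end pools, where 6 arrays remain and the secondary pairs still had r of 0.835 to 0.993. With a replicate block on the shared number, 0 genes were called, with smallest adjusted p of 0.915 in GFP-, 0.826 in GFP+ and 0.781 for the difference, and the SE for Mmp8 in GFP- went from 0.587 to 0.240. Among the 10 genes the smallest unadjusted limma p in GFP- was 0.0103 with the block and 0.217 without it. Same-numbered GFP- samples correlated at 0.408, 0.100, -0.0986 and 0.153, which is under the limit of 0.1 for pool 3 only. Clean-air pools 1, 2 and 4 were nearest to the treated pool of their number, and clean-air pool 3 to treated pool 4. Whether the numbers pair the GFP- samples is therefore not settled.

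Scaling moves the reference for the sorts. With clean air 1138 genes were higher and 1868 lower in GFP+ cells, 6082 and 1571 with arrays centred on their medians, and 1813 and 1783 after quantile normalization; with octanoic acid the numbers were 1221 and 2126, 7791 and 1715, and 2587 and 2026. The median of all genes went from 0.11 to 0.38 with clean air and to 0.42 with octanoic acid under centring. With group means raised to the 95th percentile of the negative controls, Lcn2 and Ngp remained 176-fold and 169-fold lower with clean air, while no difference was left for Elane, Prtn3, Ctsg and Camp. Arrays with GFP+ signals at the background limit every fold given as a bound.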
